A study of Mus musculus with 143 samples.

Results

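The 9 genes described here are the receptor tyrosine kinase gene Kit and 8 genes of the pathway below it: the kinase genes Pdpk1, Akt1 and Akt2, the transcription factor gene Foxo3, the brake genes Tsc1 and Tsc2, and Mtor with its partner Rptor. They were chosen by name as genes of oocyte growth signalling, with earlier results of these data known. They are 9 of the 55573 gene IDs counted in poly(A) libraries of mouse oocytes and of the 55487 counted in RiboMinus (rRNA-depleted) libraries. The study removed DIS3 and EXOSC10, the RNases attached to the nuclear RNA exosome, from oocytes by conditional knockout (cKO), and both together (dcKO). The labels say that the mutant alleles were made with CRISPR/Cas9; the Cre driver, the strain and the exact age of the adults are not given in the sources used here, and the control genotype is labelled only as control. The poly(A) libraries came from single oocytes at the germinal vesicle stage (GV: 8 control and 15 Dis3 cKO), after 3 h of culture in M2 medium (GV3h: 8 and 16) and as eggs arrested at the second meiotic metaphase after superovulation (MII: 8 and 16). The RiboMinus libraries, 8 per group, came from control and Dis3 cKO GV oocytes of adult mice and, at postnatal day 20 (p20), from control, Dis3 cKO, Exosc10 cKO and dcKO oocytes. CUT&Tag peak lists for H3K27me3, a repressive histone mark, and for RNA polymerase II were used for start sites only, 3 libraries per group.

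In the oocyte, KIT at the cell surface is bound by KIT ligand made by the surrounding granulosa cells. It activates the lipid kinase PI3K, whose product brings PDK1 (the protein of Pdpk1) and the AKT kinases to the membrane; AKT phosphorylates FOXO3, which then leaves the nucleus, and phosphorylates TSC2, which lifts the TSC1–TSC2 brake on mTOR complex 1. FOXO3 in the nucleus holds primordial oocytes dormant, and mTOR complex 1, scaffolded by RAPTOR (Rptor), drives protein synthesis and growth. Oocytes at p20 are near the end of the growth phase and adult GV oocytes are fully grown, so the pathway was compared across both. These steps act largely through phosphorylation, which RNA counts do not measure.

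The gene positions are those of RefSeq on GRCm38.p6, the mouse build also known as mm10. Kit lies on chr5:75574987-75656722 on the plus strand. Pdpk1 lies on chr17:24073680-24155619 on the minus strand. Akt1 is on chr12:112653821-112674884, minus strand, and Akt2 on chr7:27591552-27640826, plus strand. Foxo3 spans chr10:42181845-42276695 on the minus strand. Tsc1 spans chr2:28640993-28691172 on the plus strand, and Tsc2 chr17:24595816-24632676 on the minus strand, where it overlaps Pkd1. Mtor lies on chr4:148448582-148557685, plus strand, with Angptl7 inside it, and ends 733 bases before the start of Exosc10, itself a deleted gene in this study. Rptor lies on chr11:119602905-119899591, plus strand, and overlaps Rptoros. Akt1, Pdpk1 and Foxo3 also overlap predicted genes, and Mtor small RNA genes. Whether the counting used strand is not given in the sources used here, so the values of overlapping genes are uncertain to that extent.

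The start regions of Kit, Akt1 and Pdpk1 are shown because these were the members with an H3K27me3 or polymerase II peak near a start site in at least 2 of 3 libraries of a group. Each is the 250 bases before a listed RefSeq start on the gene's own strand (GRCm38.p6), with CpG pairs in capitals. Kit is read from chr5:75574737-75574986, Akt1 from chr12:112674885-112675134, and the Pdpk1 starts, both inside the span of the gene as annotated, from chr17:24150923-24151172 and chr17:24141595-24141844.
Kit: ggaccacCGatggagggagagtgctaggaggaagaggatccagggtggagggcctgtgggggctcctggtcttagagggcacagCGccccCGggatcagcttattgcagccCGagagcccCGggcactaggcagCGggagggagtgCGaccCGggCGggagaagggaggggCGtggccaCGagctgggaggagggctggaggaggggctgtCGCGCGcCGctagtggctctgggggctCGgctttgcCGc
Akt1: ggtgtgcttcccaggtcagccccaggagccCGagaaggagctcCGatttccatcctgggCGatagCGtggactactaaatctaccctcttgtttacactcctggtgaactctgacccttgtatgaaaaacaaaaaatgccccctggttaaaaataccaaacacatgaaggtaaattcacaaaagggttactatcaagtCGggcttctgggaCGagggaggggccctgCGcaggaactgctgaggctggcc
Pdpk1 start 1: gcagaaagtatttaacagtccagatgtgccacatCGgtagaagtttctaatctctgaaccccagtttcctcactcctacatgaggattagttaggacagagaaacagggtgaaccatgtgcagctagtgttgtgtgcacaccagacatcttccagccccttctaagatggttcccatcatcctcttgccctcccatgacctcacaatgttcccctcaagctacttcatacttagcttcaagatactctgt
Pdpk1 start 2: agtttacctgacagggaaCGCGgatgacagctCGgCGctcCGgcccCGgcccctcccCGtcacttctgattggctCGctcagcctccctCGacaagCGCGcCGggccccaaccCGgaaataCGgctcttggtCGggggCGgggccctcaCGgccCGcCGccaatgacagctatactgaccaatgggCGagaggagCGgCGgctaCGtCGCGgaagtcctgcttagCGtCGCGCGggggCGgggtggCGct
Kit held 17 CpG pairs in this window, the 2 Akt1 starts listed held 7 (the first, shown) and 31, and the 2 Pdpk1 starts held 1 and 31. The median over the first-listed promoter of each member was 16 CpG, beside 6 over 27025 promoters, with a GC content of 54.4% against 52.0%. On both strands, the forkhead core GTAAACA was found in the first Akt1 window alone of the 9 first-listed promoters (3.09% of all promoters). CACGTG (6.05% of all promoters), TAATTG (7.34%) and TATAAA (3504 of the 27025) were in none of the 9. A match or its absence describes the letters only.

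Library depth ranged over 4843964 to 15412200 gene counts for the 71 poly(A) oocytes and eggs, with a median of 9510351. For the 48 RiboMinus oocytes it ranged over 8492102 to 35429028, with a median of 18164035. All 9 members passed the filter on low counts in both library types, and none had fewer than 42 counts in any library. Dis3 was lower in every comparison of Dis3 cKO or dcKO with control, at log2 -2.18 to -3.63, and Exosc10 at -5.22 in Exosc10 cKO and -4.01 in dcKO. All 14 oocyte markers of a fixed list averaged at least 1 CPM (counts per 1000000 gene counts) in every group. Of 14 granulosa cell markers, 9 averaged at least 1 CPM in adult and in p20 RiboMinus controls, led by Nr5a2, with Ptx3 at 0 in all of these libraries. Of 7 theca, stroma and blood markers Pecam1 made up nearly the whole sum, with Hbb-bs at 0 in RiboMinus libraries. The labels do not say that oocytes of 1 group came from separate animals, so p-values measure the spread between these oocytes.

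Levels below are CPM after TMM scaling, which sets each library relative to most other genes, and are given as lowest, median and highest library. Differences are given as log2 fold changes with the standard error, and "called" means an adjusted p under 0.05 in the quasi-likelihood test of edgeR, adjusted over all genes after Benjamini and Hochberg. CPM is not per length, so levels are compared between groups and never between genes.

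Fully grown adult control oocytes held lower RNA levels of Mtor, Rptor, Tsc1 and Pdpk1 than control oocytes at p20, relative to other genes, while Kit, Akt1, Akt2, Foxo3 and Tsc2 were not called. This comparison of control adult GV with control p20 RiboMinus libraries sets fully grown oocytes beside growing ones. Age cannot be told apart from any difference in library preparation between the adult and p20 sets. That limit holds for every contrast between ages below, including the difference in the Dis3 effect. The 4 called members were all lower, beside 19.1% of 17267 genes called in either direction and 10.4% called lower. No member separated the groups without overlap, as 5.39% of all genes did. The median log2 difference was -0.29 over the members and -0.004 over all genes.

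Of the upstream genes, Kit stood at 562, 626 and 699 CPM in adult controls and at 634, 711 and 762 at p20. All 8 adult oocytes lay below the p20 mean, but the groups overlapped and Kit was not called (log2 -0.19, SE 0.13, adjusted p 0.342 in edgeR's test). Pdpk1, whose product phosphorylates AKT, stood at 245, 304 and 365 in adults and 334, 373 and 402 at p20. It was lower at log2 -0.33 (SE 0.09, adjusted p 0.00709 in edgeR's test), with 8 of 8 adults below the p20 mean. The AKT genes gave log2 values of 0.01 (Akt1) and 0.11 (Akt2), neither called. Foxo3, the factor that holds back follicle activation, stood at 908, 1123 and 1263 in adults and 724, 971 and 1126 at p20 (log2 0.21, SE 0.12, adjusted p 0.252 in edgeR's test).

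Of the downstream genes, Tsc1, which stabilises TSC2 in the brake on mTOR, stood at 129.7, 174.5 and 230.0 CPM in adults and at 167.5, 244.7 and 254.4 at p20. The difference of log2 -0.43 (SE 0.11) was called, with an adjusted p of 0.00477 in edgeR's test. Tsc2, the subunit with the catalytic function, gave -0.29 and was not called (adjusted p 0.126 in edgeR's test), although 8 of 8 adults lay below the p20 mean. Mtor, the kinase itself, ranged over 71.8, 89.3 and 99.3 in adults and 83.1, 123.5 and 149.6 at p20 (log2 -0.48, SE 0.12, adjusted p 0.00226 in edgeR's test). The lowest p20 library alone reached into the adult range. Rptor, which brings substrates to mTOR complex 1, ranged over 23.7, 31.6 and 49.4 in adults and 26.5, 49.0 and 92.4 at p20 (log2 -0.66, SE 0.20, adjusted p 0.0172 in edgeR's test). Its difference was the largest of the 9 members, and it rested in part on p20 library 2_4, without which it was -0.50 and not called (adjusted p 0.08 in edgeR's test).

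**Figure D1:**
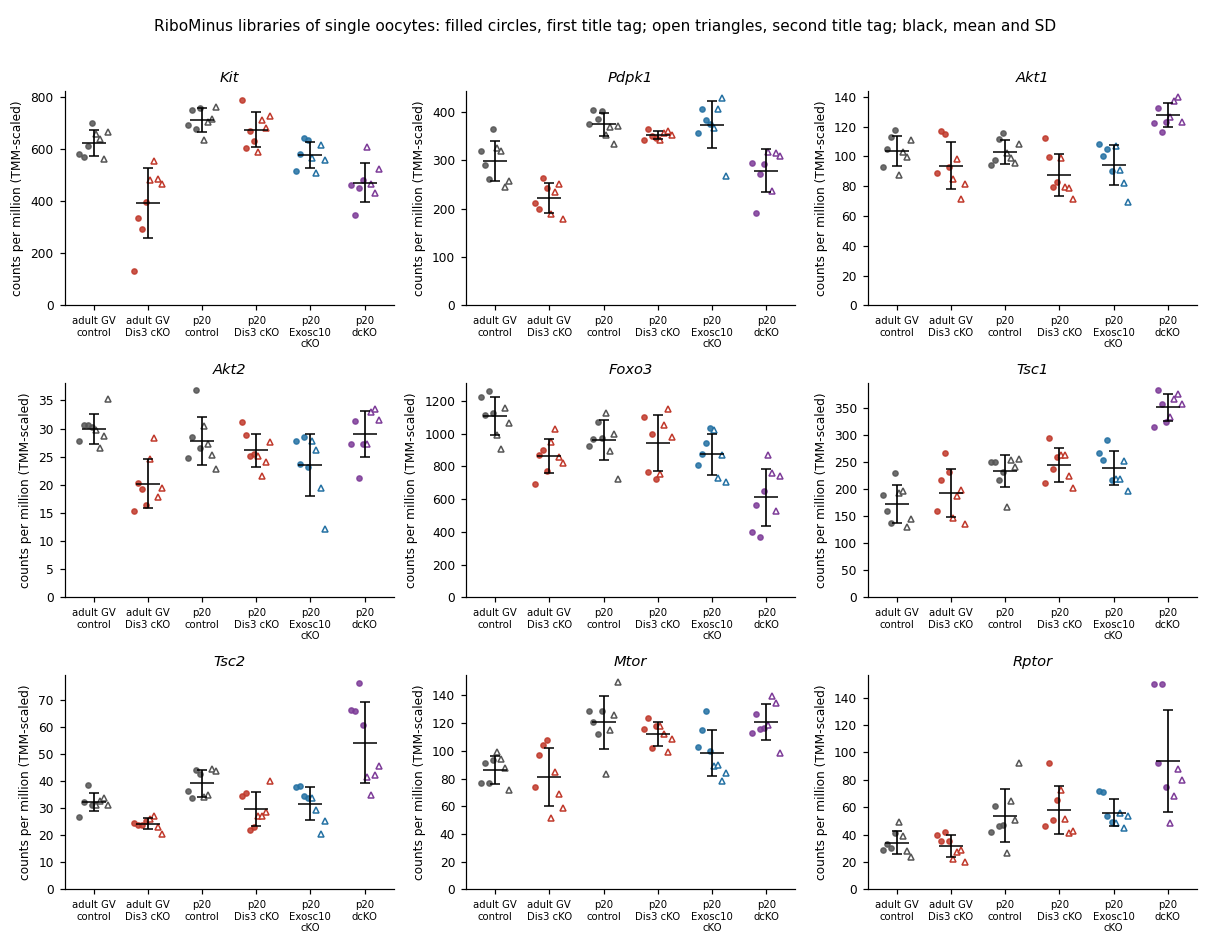
Level of each member in the RiboMinus libraries (y axis, TMM-scaled CPM, from 0; x axis, group), with 1 point per oocyte. Filled circles and open triangles mark the tags in the sample titles, and black marks give the mean and SD; Mtor, Rptor, Tsc1 and Pdpk1 stand lower in adult than in p20 controls, and Kit is lowest in adult Dis3 cKO and in dcKO.

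The titles of the RiboMinus samples carry 2 tags per group, 4 oocytes each, whose meaning the labels do not give. When the 4 libraries of each tag were summed, so that each group had 2 sums, no member was called in the adult and p20 control comparison, although the log2 values barely moved: Pdpk1 gave -0.32, Tsc1 -0.42, Mtor -0.48 and Rptor -0.65, with adjusted p of 0.129 to 0.19 in edgeR's test, and 308 of 17267 genes were called. When only these 2 groups were fitted, Kit (-0.21, adjusted p 0.00788 in edgeR's test) and Tsc2 (-0.31, adjusted p 0.013) were called as well. The direction of Foxo3, Akt1 and Akt2 depended on the scaling. Against the ERCC spike-in RNA, whose dose in these libraries is not given in the sources used here, the gene to ERCC ratio was 403 ± 48.5 in adult and 1267 ± 178 in p20 controls (SD, n = 8). On that scale all 9 members were lower in adults, at -1.47 (Foxo3) to -2.37 (Rptor), beside a median of -1.69 over all genes. Relative to that median, Mtor stood at -0.50, Rptor at -0.68, Tsc1 at -0.42 and Pdpk1 at -0.31, and Foxo3 at 0.22. The 14 granulosa markers summed to 87.8 to 151 CPM in adult and to 133 to 178 in p20 controls, and the theca, stroma and blood markers to 72.7 to 100.1 and 52.8 to 77.7; their part in these results was not tested.

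**Figure D2:**
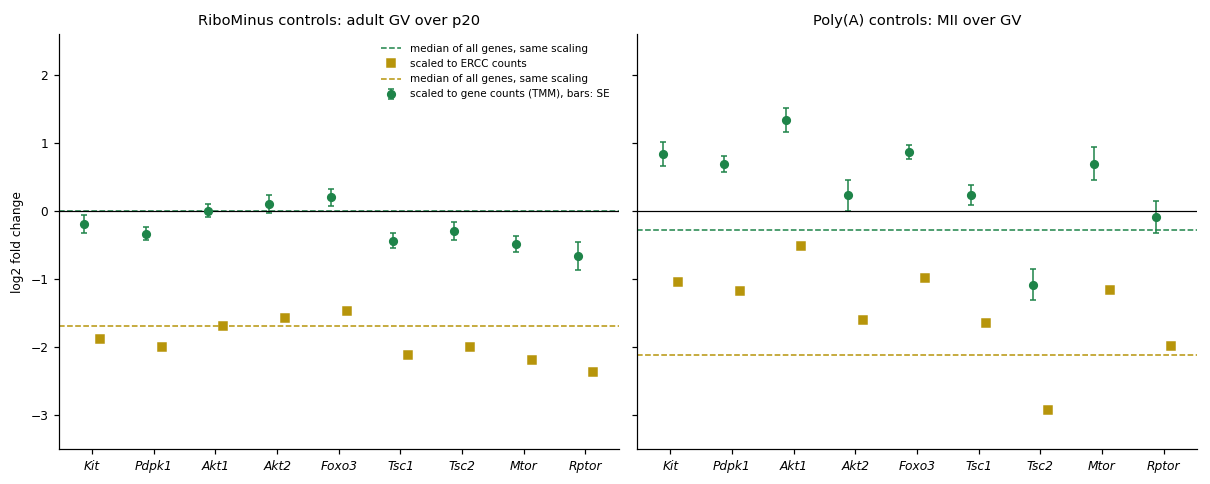
Log2 difference of each member (y axis) under TMM scaling, with its standard error, and under ERCC scaling, for adult against p20 RiboMinus controls and for MII against GV poly(A) controls. Dashed lines mark the median of all genes under each scaling; the members keep nearly the same order under both scalings while all shift down under ERCC scaling.

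Another 72 genes of the pathway were on a fixed list, chosen with earlier results of these data known. Of these, 12 were higher and 10 lower in adult than in p20 controls (30.6%, beside 19.1% of all genes). These directions depended on the scaling: under ERCC scaling 1 was called higher and 67 lower, and with sums per title tag none was called higher and 1 lower. Under TMM scaling Rheb, the small GTPase that activates mTOR complex 1, was higher by log2 0.48 (adjusted p 0.00018 in edgeR's test), and Ddit4, a stress-induced inhibitor of mTOR, by 0.73 (adjusted p 0.00016); under ERCC scaling both were lower, at -1.22 (Rheb) and -0.97 (Ddit4). Sgk1, a kinase related to AKT, was lower (log2 -0.83), and Eif4ebp2, a repressor of translation that mTOR inactivates, gave -0.66. Prkaa2, a catalytic subunit of AMPK, fell from a mean of 80.4 CPM at p20 to 33.2 in adults (log2 -1.28). The RNA of Kitl, which encodes KIT ligand, stood at 17.1 ± 4.65 CPM against 27.6 ± 5.09 (SD, n = 8). Kitl is also on the granulosa marker list.

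Loss of DIS3 was accompanied by lower Kit, Pdpk1, Akt2, Foxo3 and Tsc2 RNA in adult GV oocytes, while at p20 no member was called. In adults these 5 members of 9 were called, all lower, beside 28.1% of 15334 genes called in either direction and 12.4% called lower. Kit ranged over 134, 431 and 553 CPM in adult Dis3 cKO oocytes and over 562, 626 and 699 in controls. Every cKO oocyte lay below every control, a separation that 7.08% of all genes showed (log2 -0.65, SE 0.18, adjusted p 0.0125 in edgeR's test). Akt2, the AKT gene best known for insulin signalling, stood at 15.3, 19.4 and 28.4 against 26.5, 30.02 and 35.3 (log2 -0.55, SE 0.12, adjusted p 0.00178 in edgeR's test). Foxo3 stood at 692, 864 and 1026 against 908, 1123 and 1263 (-0.34, SE 0.08, adjusted p 0.00302 in edgeR's test). Akt2 reached the control range in 1 cKO oocyte and Foxo3 in 2, and in both genes 8 of 8 cKO oocytes lay below the control mean. Pdpk1 (-0.40) and Tsc2 (-0.39) were lower by similar amounts, also with 8 of 8 below. Akt1, Tsc1, Mtor and Rptor gave log2 values from -0.12 to 0.18 with adjusted p of 0.373 to 0.754 in edgeR's test.

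The adult Dis3 cKO oocytes differed by title tag: Kit averaged 289.7 CPM in the 4 oocytes tagged AM1713 and 496.1 in the 4 tagged AM1757, both below the control averages of 616.6 and 631.5. Mtor went the other way, with 95.7 in AM1713 and 66.0 in AM1757, and so did Rptor with 38.3 and 24.7. These tag averages were compared after the values were seen, and were not tested. With the libraries summed per tag, Kit kept log2 -0.65 but no member and no gene of the 15334 tested was called (adjusted p 0.229 for Kit in edgeR's test), with 2957 genes at an unadjusted p under 0.05. Under ERCC scaling the 5 members remained lower and Akt1 was called too (-0.61). Among the 70 other pathway genes tested, 3 were higher and 14 lower (24.3%, beside 28.1% of all genes). The granulosa markers summed to 85.4 to 172 CPM in these cKO oocytes and 87.8 to 151 in controls. The theca, stroma and blood markers summed to 31.3 to 88.8 CPM (median 64.5) in cKO and 72.7 to 100.1 (median 80.2) in controls. Pecam1 stood at medians of 59.3 and 79.0, and Star, a marker of the same list, went the other way at 2.84 and 0.59. The part of these markers in the results was not tested.

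At p20, the Dis3 cKO gave log2 values from -0.40 to 0.11 for the 9 members. None was called by edgeR or DESeq2, beside 7.37% of 15882 genes called by edgeR and 3207 genes at an unadjusted p under 0.05. Tsc2 came nearest (-0.40, adjusted p 0.111 in edgeR's test), with 21.9, 27.8 and 40.1 CPM against 33.7, 39.5 and 44.5 in p20 controls, and was called where only these 2 groups were fitted (adjusted p 0.0451 in edgeR's test). Kit stood at 590, 675 and 789 against 634, 711 and 762, so that the groups covered nearly the same range. The test of the difference in the Dis3 effect between ages called Kit alone of the members, at log2 -0.59 (SE 0.19, adjusted p 0.0364 in edgeR's test), beside 9.32% of all genes called and 3.98% called with a lower value. That call was lost in the fit of these 4 groups alone (-0.57, adjusted p 0.0578), after summing per tag (-0.57, adjusted p 0.392) and under ERCC scaling (-0.81, adjusted p 0.162), all in edgeR's test. In the fit of these 4 groups alone 1 member other than Kit was called, with a lower value. In p20 Dis3 cKO the granulosa markers summed to 124 to 204 CPM and the theca, stroma and blood markers to 64.9 to 80.0, beside 133 to 178 and 52.8 to 77.7 in p20 controls.

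Between Dis3 cKO oocytes of both ages, 6 members were lower in adults and none higher, beside 37.5% of all genes called in either direction and 18.3% called lower. Kit fell by 0.78 on the log2 scale and Pdpk1 by 0.67, each without overlap between the ages (7.96% of all genes). Rptor (-0.88), Mtor (-0.47) and Tsc1 (-0.34) were lower here as in the controls, and Akt2 gave -0.37 (adjusted p 0.0198 in edgeR's test). Akt2 lost its call without the filter on low counts (-0.35, adjusted p 0.0577 in edgeR's test). With libraries summed per title tag, Kit, Pdpk1 and Rptor stayed called. Akt2 (-0.38, adjusted p 0.144), Tsc1 (-0.35, adjusted p 0.103) and Mtor (-0.47, adjusted p 0.092) were not called in edgeR's test on these sums. Under ERCC scaling all 9 members were called lower. Granulosa markers summed to medians of 123.1 CPM in adult and 173.5 in p20 Dis3 cKO, and theca, stroma and blood markers to 64.5 and 73.45. Both lists overlapped between the ages, and their part in these results was not tested.

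The Exosc10 cKO at p20 changed 1 member: Kit was lower at log2 -0.30 (SE 0.08, adjusted p 0.017 in edgeR's test), beside 7.45% of all genes called and 3.5% called lower. Kit ranged over 510.1, 575 and 642 CPM against 634, 711 and 762 in p20 controls, and 8 of 8 cKO oocytes lay below the control mean. Within the title tags the differences were -0.28 and -0.32. Mtor, the neighbour of the deleted Exosc10 gene, stood at 78.0, 94.8 and 129 against 83.1, 123.5 and 149.6 (-0.30, SE 0.10, adjusted p 0.0613 in edgeR's test) and was not called. The call of Kit was lost under ERCC scaling (-0.32, adjusted p 0.631 in edgeR's test) and after summing per tag (-0.32, adjusted p 0.216). Of the other pathway genes, Deptor alone was called, and it was lower. The theca, stroma and blood markers summed to 69.4 to 114 CPM in Exosc10 cKO and 52.8 to 77.7 in p20 controls, and the granulosa markers to 138 to 204 and 133 to 178; their part in these results was not tested.

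With both RNases lost at p20, Kit, Pdpk1 and Foxo3 were lower and Akt1, Tsc1, Tsc2 and Rptor higher in dcKO than in control oocytes, so 7 of 9 members were called, beside 53.7% of all genes, of which 26.6 percentage points were higher and 27.1 lower. Kit, Pdpk1, Akt1 and Tsc1, all among these 7, separated the groups without overlap, as 19.6% of all genes did. Under ERCC scaling 3 of the 9 were called (Kit, Foxo3 and Tsc1). The receptor gene Kit stood at 347, 464 and 607 CPM in dcKO against 634, 711 and 762 (log2 -0.59, SE 0.08, adjusted p 3.4e-07 in edgeR's test). Pdpk1 stood at 190.7, 293 and 316 against 334, 373 and 402 (-0.42, SE 0.09, adjusted p 0.00012 in edgeR's test). Foxo3 had the widest spread of the lower genes, with 370.2, 606 and 871 against 724, 971 and 1126 (-0.64, SE 0.14, adjusted p 0.00015 in edgeR's test).

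Akt1, the most widely expressed of the AKT genes in mouse tissues, stood at 117, 125 and 140.1 CPM in dcKO against 94.2, 101 and 116 in control oocytes (log2 0.32, SE 0.09, adjusted p 0.0031 in edgeR's test). Tsc1 showed the widest gap between groups: the lowest dcKO oocyte, at 313.5, lay above the highest control, at 254.4 (0.60, SE 0.09, adjusted p 8.4e-07 in edgeR's test). Tsc2 stood at 35.1, 53.3 and 76.5 against 33.7, 39.5 and 44.5 (0.48, SE 0.15, adjusted p 0.00796 in edgeR's test). Rptor stood at 48.2, 83.9 and 149.9 against 26.5, 49.0 and 92.4 (0.81, SE 0.21, adjusted p 0.00148 in edgeR's test). In both, 7 of 8 dcKO oocytes lay above the control mean. Akt2 (0.07) and Mtor (0.01) were not called.

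The size of the dcKO difference varied with the title tag, most for Tsc2, Rptor and Foxo3 among the 7 called members. Tsc2 averaged 67.4 ± 6.52 CPM in the dcKO oocytes of tag 1 and 41.1 ± 4.41 in those of tag 2 (SD, n = 4), for log2 differences of 0.78 and 0.07 within the tags. Rptor differed by 1.25 and 0.28, and Foxo3 by -0.99 and -0.37. Pdpk1 (-0.58 and -0.28) and Kit (-0.73 and -0.47) were also larger in size in tag 1, and Akt1 (0.24 and 0.38) and Tsc1 (0.54 and 0.65) in tag 2. The residual level of Exosc10 in dcKO averaged 4.19 CPM in tag 1 and 10.3 in tag 2; its part in the difference between tags was not tested. With libraries summed per tag, Akt1 (0.31, adjusted p 0.0618) and Tsc2 (0.46, adjusted p 0.134) were no longer called in edgeR's test and 5 members were. The 3 members called under ERCC scaling in edgeR's test were Kit (-0.64, adjusted p 0.0105), Foxo3 (-0.65, adjusted p 0.0194) and Tsc1 (0.51, adjusted p 0.044).

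**Figure D3:**
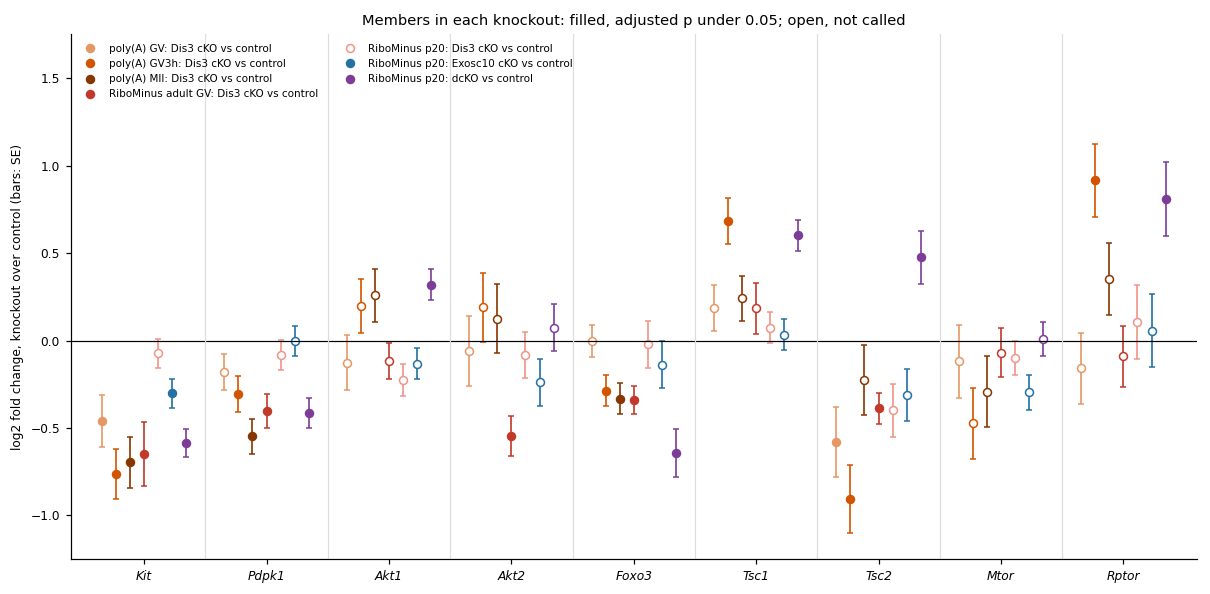
Log2 difference from control (y axis) for each member (x axis), with knockout comparisons marked by colour and with standard error bars. Filled points are called at an adjusted p under 0.05 and open points are not. Kit is lower in every comparison and called in all except p20 Dis3 cKO. Tsc1 and Rptor are called higher in GV3h Dis3 cKO and p20 dcKO.

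The dcKO also differed from each single knockout. Against p20 Dis3 cKO 7 members were called (51.5% of all genes), and against Exosc10 cKO 8 were (49.2%). Kit was lower in dcKO by -0.51 against Dis3 cKO and by -0.28 against Exosc10 cKO. Foxo3 was lower at -0.62 and -0.50. Tsc1 was higher by 0.53 and 0.57 and Akt1 by 0.54 and 0.45, without overlap in any of these 4 cases (14.6% and 12.7% of all genes). Tsc2 was higher by 0.87 and 0.79 and Rptor by 0.71 and 0.76. The comparisons share the dcKO libraries. Under ERCC scaling 4 members were called against Dis3 cKO (Akt1, Tsc1, Tsc2 and Rptor, all higher) and 1 against Exosc10 cKO (Tsc2, higher), so that no lower call was kept: Kit gave -0.24 (adjusted p 0.356) and -0.32 (adjusted p 0.221) and Foxo3 -0.34 (adjusted p 0.238) and -0.55 (adjusted p 0.0564) in edgeR's test. With libraries summed per tag 6 members were called in each comparison. In dcKO the theca, stroma and blood markers summed to 28.1 to 44.5 CPM. They summed to 64.9 to 80.0 in p20 Dis3 cKO and 69.4 to 114 in Exosc10 cKO. Summed granulosa markers stood at 117 to 188, 124 to 204 and 138 to 204 in the same order. The part of either marker list in these results was not tested.

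Of the 70 other pathway genes tested in dcKO against control, 24 were higher and 19 lower (61.4%, beside 53.7% of all genes). Under ERCC scaling 10 were higher and 14 lower, and with sums per title tag 14 and 15. Mlst8, whose product is a subunit of both mTOR complex 1 and mTOR complex 2, was higher by log2 1.32 (adjusted p 7.2e-06 in edgeR's test). Mtor, the kinase of both, was not called (0.008). Rptor was higher, while the inhibitor Deptor was lower at -1.23 (adjusted p 8.1e-09 in edgeR's test). The 4 genes listed for mTOR complex 2 (Rictor, Mapkap1, Prr5 and Prr5l) were all lower, beside 27.1% of all genes called lower. Prr5 led at -0.77 (adjusted p 3.4e-06 in edgeR's test), and Rictor, Mapkap1 and Prr5l were added after their values were seen. Prr5 stayed called under ERCC scaling (-0.80) and with sums per title tag (-0.78), settings compared for Prr5 alone of these genes. Pik3r1, a regulatory subunit of PI3K, fell from 508 CPM in controls to 243 in dcKO (log2 -1.05, adjusted p 2.1e-05 in edgeR's test). Prkaa2 stood at 302 CPM in dcKO against 80.4 (1.91, adjusted p 3.8e-08 in edgeR's test). The summed granulosa markers stood at 117 to 188 CPM in dcKO, and at 133 to 178 in the p20 controls, with members that went opposite ways. Cyp19a1 stood at 1.15 to 9.09 CPM in dcKO and 18.1 to 38.3 in controls, without overlap, while Nr5a2 had medians of 118 and 76.8. The theca, stroma and blood markers summed to 28.1 to 44.5 CPM in dcKO and 52.8 to 77.7 in controls, with Pecam1 at medians of 37.2 and 69.5; their part in the results was not tested.

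In the poly(A) libraries the Dis3 cKO was accompanied by lower Kit RNA at GV, GV3h and MII, and the set of called members differed by stage. At GV, 2 of 9 members were called, Kit and Tsc2, both lower, beside 21.9% of 17389 genes called in either direction and 8.33% called lower. Kit stood at 174, 304 and 391 CPM in Dis3 cKO against 331, 398 and 554 in controls (log2 -0.46, SE 0.15, adjusted p 0.0163 in edgeR's test), with 15 of 15 cKO oocytes below the control mean. Tsc2 stood at 17.9, 28.1 and 58.0 against 26.4, 49.9 and 58.4 (-0.58, SE 0.20, adjusted p 0.0247 in edgeR's test), with 13 of 15 below. Foxo3 was nearly level, at 526, 709 and 840 against 580.2, 722 and 753 (-0.002, SE 0.09). With the replicate number as a block Tsc2 was no longer called (-0.53, adjusted p 0.0631 in edgeR's test). The theca, stroma and blood markers summed to 14.7 to 66.2 CPM in GV Dis3 cKO and 62.9 to 95.4 in GV controls, with Pecam1 lower (medians 36.7 and 74.9) and Star, a steroidogenic gene, higher (4.76 and 0.90). The granulosa markers summed to 69.5 to 257 and 98.9 to 263, with Cyp19a1 at 8.41 to 23.1 in cKO and 29.9 to 48.7 in controls, without overlap; their part in these results was not tested.

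After 3 h of culture, 6 of 9 members were called in Dis3 cKO, beside 38.6% of all genes: Kit, Pdpk1, Foxo3 and Tsc2 lower (15.7% of all genes), and Tsc1 and Rptor higher (22.9%). Both subunits of the TSC brake moved, in opposite directions, each without overlap between cKO and control, as 9.28% of all genes showed. Tsc1 stood at 113, 155 and 194 CPM in cKO against 78.1, 95.8 and 104 in controls (log2 0.68, SE 0.13, adjusted p 2.3e-05 in edgeR's test). Tsc2 stood at 25.6, 31.8 and 42.4 against 43.5, 64.5 and 82.1 (-0.91, SE 0.19, adjusted p 0.00011 in edgeR's test). Rptor stood at 22.9, 38.3 and 70.97 against 15.6, 20.98 and 30.1 (0.92, SE 0.21, adjusted p 0.00033 in edgeR's test), with 16 of 16 above the control mean.

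Of the upstream genes at GV3h, Kit stood at 206, 323 and 455 CPM in cKO against 377, 539 and 744 (log2 -0.76, SE 0.15, adjusted p 1.6e-05 in edgeR's test). Foxo3 stood at 488, 618 and 739 against 705, 754 and 793 (-0.29, SE 0.09, adjusted p 0.00679 in edgeR's test). In both genes 16 of 16 cKO oocytes lay below the control mean, and in Foxo3 the highest cKO oocyte alone reached the control range. Pdpk1 was lower at -0.31 (adjusted p 0.013 in edgeR's test). Under ERCC scaling Pdpk1 (-0.33, adjusted p 0.179) and Foxo3 (-0.34, adjusted p 0.163) lost their calls in edgeR's test. Mtor gave -0.47 and narrowly missed the threshold in edgeR's test (adjusted p 0.0564), while DESeq2 called it (adjusted p 0.044). When only the GV3h groups were fitted, 7 members were called, 2 higher and 5 lower. The theca, stroma and blood markers summed to 33.2 to 53.95 CPM in GV3h Dis3 cKO and 56.3 to 85.5 in GV3h controls, with Pecam1 at medians of 35.4 and 68.4 and Star, in the other direction, at 6.64 and 0.996, and the granulosa markers to 44.1 to 95.0 and 72.7 to 110.1; their part in these results was not tested.

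In MII eggs, Kit, Pdpk1 and Foxo3 were lower in Dis3 cKO and the other 6 members were not called, beside 42.1% of all genes called and 14.8% called lower. Kit stood at 177.5, 499 and 681 CPM against 538, 764 and 961 (log2 -0.70, SE 0.15, adjusted p 6.6e-05 in edgeR's test). Pdpk1 stood at 152, 236 and 305 against 278, 333 and 418 (-0.55, SE 0.10, adjusted p 9e-06 in edgeR's test). Foxo3 stood at 519, 1022 and 1266 against 1021, 1321 and 1458 (-0.33, SE 0.09, adjusted p 0.0015 in edgeR's test). In all 3, 16 of 16 cKO eggs lay below the control mean. The lowest Kit and Foxo3 values came from replicate 15, which also had the highest Pdpk1 (305 CPM) and Akt2 (38.9 CPM) and a gene to ERCC ratio of 14.4 against a group mean of 55.5; the calls held without it. The granulosa markers summed to 58.6 to 94.3 CPM in MII Dis3 cKO, with Hsd17b1, Amhr2, Ptx3, Inha and Foxl2 at 0 in every library, and to 104 to 189 in MII controls, and Cyp19a1 stood at 7.55 to 44.2 and 54.3 to 83.5, without overlap. The theca, stroma and blood markers summed to 23.5 to 112 CPM in cKO and 88.7 to 146 in controls; their part in these results was not tested. Under ERCC scaling, where the median of all genes moved to 0.52, Kit (-0.29, adjusted p 0.325) and Pdpk1 (-0.23, adjusted p 0.322) were not called in edgeR's test and Foxo3 turned to 0.05. On that scale 3 other members were called instead, all higher: Akt1 (0.58, adjusted p 0.0314), Tsc1 (0.565, adjusted p 0.0335) and Rptor (0.72, adjusted p 0.0385 in edgeR's test).

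**Figure D4:**
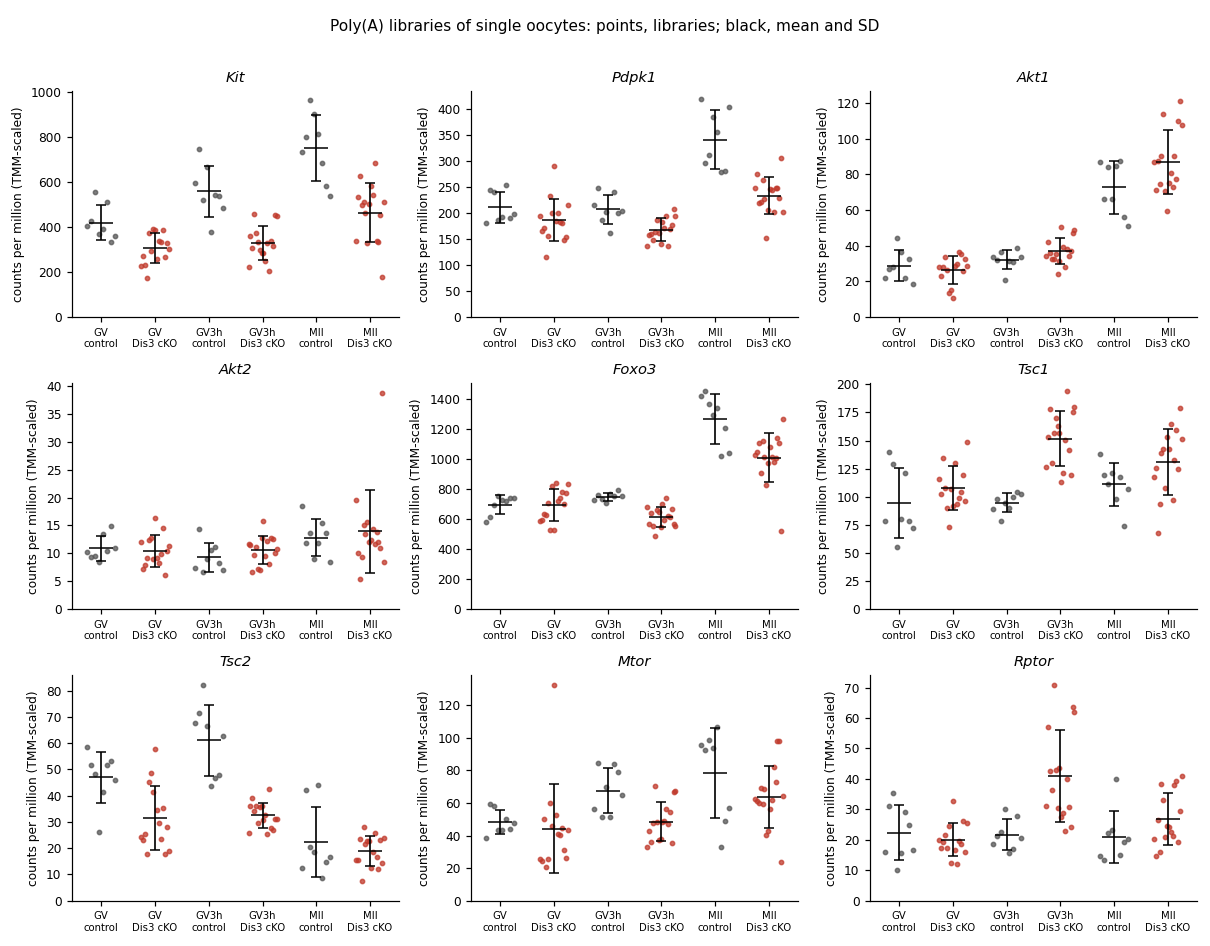
Level of each member in the poly(A) libraries (y axis, TMM-scaled CPM, from 0; x axis, stage and genotype), with 1 point per oocyte and the mean and SD in black. Kit lies lower in Dis3 cKO than in control at each stage, and Akt1 and Foxo3 lie higher in MII eggs than in GV oocytes of both genotypes.

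The test of whether the Dis3 effect differed between GV3h and GV called Rptor alone of the members (log2 1.08, SE 0.29, adjusted p 0.0318 in edgeR's test), beside 2.04% of all genes called and 1.37% called with a higher log2 effect at GV3h than at GV, the direction of Rptor. In the cKO, 3 members were called between GV and GV3h, all higher (17.3% of all genes called, 7.42% higher), Akt1 by 0.49, Tsc1 by 0.50 and Rptor. Rptor rose between GV and GV3h in the cKO (1.03, SE 0.17, adjusted p 1.5e-05 in edgeR's test) and stood at medians of 20.8 and 20.98 CPM in controls. Under ERCC scaling the change in the Dis3 effect on Rptor was 1.41 and not called (adjusted p 0.0534 in edgeR's test). For the change in the Dis3 effect between MII and GV no member was called by edgeR under TMM scaling over all libraries, beside 13.2% of all genes (4718 at an unadjusted p under 0.05). DESeq2 called Pdpk1 (-0.41, adjusted p 0.0397) and Foxo3 (-0.38, adjusted p 0.0196), and without MII Dis3 cKO replicate 15 edgeR called Pdpk1 (-0.40, adjusted p 0.0478). Under ERCC scaling edgeR called 3 members in the other direction, Akt1 (0.95, adjusted p 0.0173), Tsc2 (1.08, adjusted p 0.0186) and Rptor (1.13, adjusted p 0.0263), beside a median of 0.69 over all genes. For 8 of the 9 members the change in the Dis3 effect between GV and GV3h did not pass the test.

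Among control oocytes, no member was called between GV3h and GV by edgeR or DESeq2 in the fit of all groups, beside 2.71% of genes called by edgeR and 2736 genes at an unadjusted p under 0.05. Kit (0.41) and Mtor (0.49) gave the highest values, and both were called when only these 2 groups were fitted (adjusted p 0.025 and 0.0108 in edgeR's test). The summed granulosa markers ran from 98.9 to 263 CPM in GV controls and from 72.7 to 110.1 in GV3h controls; their part in these values was not tested.

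Between control MII eggs and GV oocytes, 6 members were called, beside 58.5% of all genes: Kit, Pdpk1, Akt1, Foxo3 and Mtor higher (22.7% of all genes) and Tsc2 lower (35.8%), relative to other genes. Pdpk1, Akt1 and Foxo3 separated the stages without overlap, as 28.4% of all genes did. Akt1 had the largest difference, from 18.7, 27.4 and 44.1 CPM at GV to 50.7, 75.1 and 87.2 at MII (log2 1.34, SE 0.18, adjusted p 1.2e-09 in edgeR's test). Foxo3 went from 580.2, 722 and 753 to 1021, 1321 and 1458 (0.87, SE 0.10, adjusted p 2.7e-11 in edgeR's test). Kit gave 0.84, Pdpk1 0.70 and Mtor 0.70. Tsc2 stood at 26.4, 49.9 and 58.4 at GV and at 8.85, 17.7 and 43.9 at MII (-1.08, SE 0.23, adjusted p 5.2e-05 in edgeR's test), with 8 of 8 eggs below the GV mean. Akt2, Tsc1 and Rptor were not called. Markers of other cell types also moved between these stages. In controls the summed theca, stroma and blood markers stood at 62.9 to 95.4 CPM at GV and 88.7 to 146 at MII, and the summed granulosa markers at 98.9 to 263 and 104 to 189. Of the granulosa markers, Inha went from a median of 20.6 CPM to 0 and Gja1 from 15.6 to 0, while Cyp19a1 went from 34.1 to 63.0; their part in the results was not tested.

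These directions depended on the scaling for every called member except Tsc2. Under ERCC scaling all 9 members were lower in MII than in GV controls, from -0.51 (Akt1, adjusted p 0.0545 in edgeR's test) to -2.93 (Tsc2), with a median of -2.12 over all genes against -0.27 under TMM scaling. Relative to that median Akt1 stood at 1.61, Foxo3 at 1.13, Kit at 1.08 and Tsc2 at -0.81. The gene to ERCC ratio averaged 137 at GV and 46.0 at MII in controls. In Dis3 cKO oocytes all 9 members were called between MII and GV, beside 63.3% of all genes, 8 higher (24.8%) and Tsc2 lower (38.5%) under TMM scaling; Akt1 (1.72) separated the stages without overlap, as 9.96% of all genes did, and 7 of the 8 were lower under ERCC scaling and Akt1 stayed higher (0.44). Akt2 (0.42) lost its call without MII Dis3 cKO replicate 15 (0.24, adjusted p 0.148 in edgeR's test), and also under the replicate block. In these oocytes the summed theca, stroma and blood markers stood at 14.7 to 66.2 CPM at GV and 23.5 to 112 at MII, and the granulosa markers at 69.5 to 257 and 58.6 to 94.3.

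The ratios of counts within the same library do not depend on the scaling, and 3 were compared: Tsc1 to Tsc2 (the TSC brake), Rptor to Mtor (mTOR complex 1) and Akt1 to Akt2. Their group means are geometric means (means of the log2 ratios, turned back to ratios) and are on the scale of counts, not molecules. Over 30 exact two-sided permutation tests with Benjamini-Hochberg adjustment, the Tsc1 to Tsc2 ratio was higher in Dis3 cKO at GV3h, with a mean of 4.65 against 1.58 (log2 1.56, exact adjusted p 4.1e-05) and no overlap of the 16 and 8 libraries. It was also higher in Dis3 cKO at GV (3.58 against 1.96, exact adjusted p 0.0293) and in adult RiboMinus oocytes (7.77 against 5.27, exact adjusted p 0.0321). In p20 oocytes it was higher in Dis3 cKO (log2 0.49, exact adjusted p 0.042) and Exosc10 cKO (0.37, exact adjusted p 0.042). In dcKO it gave 0.17 (exact adjusted p 0.409), a mean over title tags that differed: Tsc1 and Tsc2 differed from control by 0.54 and 0.78 in tag 1, and by 0.65 and 0.07 in tag 2, so that the ratio moved in opposite directions. The ratio tests took no account of the tags. Within tags, compared after the values were seen and not tested, the ratio differed from control by 0.55 and 0.43 in p20 Dis3 cKO and by 0.23 and 0.51 in Exosc10 cKO, and its adult Dis3 cKO mean was 8.82 in AM1713 and 6.84 in AM1757. In control oocytes it rose from 1.96 at GV to 5.63 at MII (exact adjusted p 0.00816). It did not pass the test in MII Dis3 cKO (log2 0.32, exact adjusted p 0.409) or in control GV3h against GV (-0.31, exact adjusted p 0.244).

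The Rptor to Mtor ratio was higher in Dis3 cKO at GV3h (0.815 against 0.320, log2 1.35, exact adjusted p 6.1e-05), with 16 of 16 cKO oocytes above the control mean. In p20 dcKO it was 0.733 against 0.427 (exact adjusted p 0.0293) and in Exosc10 cKO log2 0.42 higher (exact adjusted p 0.0431). The dcKO difference was log2 1.25 in tag 1 and 0.31 in tag 2, and that in Exosc10 cKO 0.47 and 0.37. Of the pair, Mtor gave log2 -0.30 in Exosc10 cKO and Rptor 0.81 in dcKO. The Rptor to Mtor ratio did not pass the test in Dis3 cKO at poly(A) GV (log2 0.18, exact adjusted p 0.541) or MII (0.63, exact adjusted p 0.0851). Nor did it in adult (0.008, exact adjusted p 0.978) or p20 (0.22, exact adjusted p 0.34) RiboMinus Dis3 cKO. In controls it gave -0.44 at GV3h (exact adjusted p 0.125) and -0.67 at MII (exact adjusted p 0.0735) against GV. The Akt1 to Akt2 ratio was higher in MII than GV controls (5.74 against 2.59, exact adjusted p 0.00466), in adult Dis3 cKO (4.68 against 3.46, exact adjusted p 0.0293) and in dcKO (log2 0.25, exact adjusted p 0.0431). Of the adult Dis3 cKO oocytes, the 4 tagged AM1713 stood at 5.67 to 5.96 and the 4 tagged AM1757 at 3.45 to 4.17, overlapping the control tags (3.34 to 3.88 and 2.93 to 3.89). The dcKO difference was 0.37 in tag 1 and 0.13 in tag 2. In poly(A) Dis3 cKO the Akt1 to Akt2 ratio did not pass the test at GV (log2 -0.07, exact adjusted p 0.875), GV3h (-0.002, exact adjusted p 0.99) or MII (0.22, exact adjusted p 0.409). Nor did it in p20 Dis3 cKO (-0.16, exact adjusted p 0.217), Exosc10 cKO (0.13, exact adjusted p 0.369) or control GV3h against GV (0.44, exact adjusted p 0.202). Between adult and p20 controls none of the 3 ratios passed the test: log2 -0.11 for Akt1 to Akt2, -0.17 for Tsc1 to Tsc2 and -0.14 for Rptor to Mtor, with exact adjusted p of 0.351 to 0.417. Mtor and Rptor were both lower in adults, and the shift of their ratio did not pass the test.

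**Figure D5:**
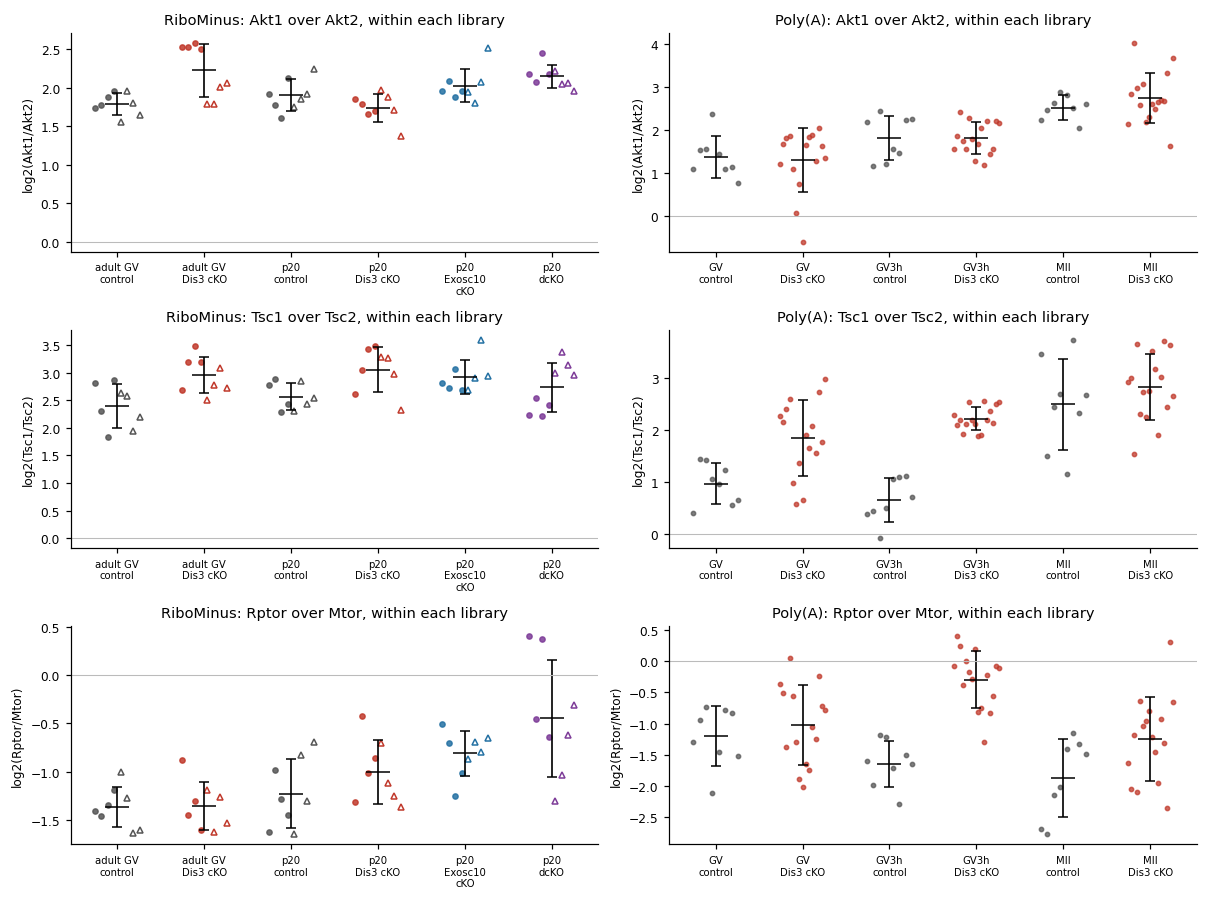
Ratio of the counts of Tsc1 to Tsc2, Rptor to Mtor and Akt1 to Akt2 in each library (y axis, log2 scale; x axis, group), with the mean and SD in black. The Tsc1 to Tsc2 ratio of Dis3 cKO oocytes at GV3h lies wholly above that of controls, and p20 and adult controls overlap in each ratio.

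The GV poly(A) and adult RiboMinus comparisons of Dis3 cKO with control share no libraries. The log2 differences had the same sign in both for 9 of 9 members and for 71.2% of 14752 genes. Kit and Tsc2, 2 of the 9 members, were called in both, each lower, beside 12.2% of all genes called in both, of which 98.5% matched in sign. Between GV3h Dis3 cKO and p20 dcKO, which also share no libraries, signs matched for 7 of 9 members and for 72.4% of 14914 genes. Of the 9 members 6 were called in both, beside 26.9% of all genes, and 5 of these matched in sign, as 94.1% of all genes called in both did, and Tsc2 was the exception, lower at GV3h and higher in dcKO.

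Ordered by group median in RiboMinus libraries, Kit ran from adult Dis3 cKO (431 CPM) through dcKO (464), Exosc10 cKO (575), adult control (626) and p20 Dis3 cKO (675) to p20 control (711). Foxo3 was lowest in dcKO (606) and highest in adult control (1123), and Rptor lowest in adult control (31.6) and highest in dcKO (83.9). Each of these groups overlapped with its neighbour in the order. Over all 9 members and both library types, neighbours were separate only for Akt1 between GV3h Dis3 cKO (35.3) and the MII control above it, and for Tsc1 between p20 Dis3 cKO (248) and dcKO. Over the 12 group means, the genes most like Kit among 9220 were Heatr5a (Pearson r = 0.961), Jkamp (0.959) and Mpdz (0.958), and those most like Foxo3 were Ncoa3 (0.988), Rnf111 (0.981) and Ccnt2 (0.98). These points share groups within 2 library types, so the values are descriptions only.

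The peak lists held few peaks near the members' start sites. For H3K27me3, Kit had a peak within 1000 bp of its start in 2 of 3 adult control libraries and in 1 of 3 at p20, the nearest lying over the start itself, and none in adult Dis3 cKO or p20 dcKO. It was the only member with such a peak in at least 2 libraries of a group, in adult controls, where 20.1% of 17273 genes had one; in p20 controls, adult Dis3 cKO and p20 dcKO, where 24.8%, 24.6% and 27.1% of genes did, no member had one. For polymerase II, Pdpk1 had a peak in 3 of 3 p20 control libraries and Akt1 in 2 of 3, so 2 of 9 members counted (7.54% of all genes). In adult controls no member did (2.06%), with Pdpk1, Akt2, Foxo3 and Tsc2 in 1 library each, and in adult Dis3 cKO Pdpk1 did, in 2 of 3 (6.4%). The polymerase II lists held 19697 to 35843 peaks per library in adult controls and 74287 to 82446 at p20, and a longer list covers more starts. The 2 p20 members were lost with a window of 250 bp. The Akt1 peaks of both p20 libraries lay within 1000 bp of the first listed start, whose window is shown above, and the nearest lay over it; 1 library also had one 179 bp from the other start. For Pdpk1 the 3 p20 libraries pool both starts: 2 had a peak near start 1, the nearest 774 bp away, and 1 near start 2, 76 bp away. In adult Dis3 cKO the 2 libraries had their Pdpk1 peak near start 2, the nearest 76 bp away, and 1 had one near start 1.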

How the data were processed

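Single mouse oocytes were profiled with poly(A) and RiboMinus RNA libraries (random hexamer priming in the latter, per the labels' protocols), with ERCC spike-in RNA in both. The authors deposited whole-number counts per gene; per the submitters' processing notes, which give no role or order, the tools included cutadapt 2.5, STAR 2.7.2a, SAMtools 1.9, HTSeq 0.9.1, DESeq2 1.24.0 and SEACR, with build mm10. The deposited CUT&Tag peak lists hold the total signal of each peak as the authors' peak caller gave it, called per library, and per the labels' protocols reads were sampled to an equal number.

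Counts were fitted with edgeR 4.0.16 (R 4.3.3; filterByExpr, TMM, quasi-likelihood F test, Benjamini-Hochberg, threshold 0.05). One model was fitted over the 6 poly(A) groups, 1 over the adult RiboMinus oocytes, 1 over the 4 p20 groups and, for contrasts between ages, 1 over the 6 RiboMinus groups. The standard error is the log2 fold change divided by the root of F. ERCC rows stayed out of library sizes. Ratios used 0.5 added to each count. Peaks were counted within 1000 bp of a RefSeq start in at least 2 of 3 libraries. Alternatives were ERCC scaling, DESeq2 1.42.0, no filter, only the groups compared, a replicate block, sums per title tag and leaving libraries out. Other pathway genes were named where they changed most in their role group and direction (age contrast and dcKO), with Kitl in any case, of which a selection is printed; Rictor, Mapkap1 and Prr5l were added after their values were seen. On simulated data, 47.5% of 200 genes changed 2-fold were recovered for the age contrast (17267 genes) and 53.5% for dcKO (15882 genes). The 200 genes were drawn from all genes past the filter, whatever their level, so these rates do not describe the members. Members and lists were chosen with earlier results of these data known. All sample columns were used.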

Additional observations from a re-analysis of the deposited data

Results flagged for a closer look

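Among 81 sets of 8 libraries screened for a library far from the rest of its group, 5 held one, where chance gives about 1 in 20. Akt1 in GV3h controls had library 4 lowest at 20.8 CPM, with the next at 30.8. Rptor in MII controls had library 5 highest at 40.1, with the next at 23.1. Pdpk1 in p20 Exosc10 cKO had library 2_4 lowest at 266 (next 356). Akt2 in adult RiboMinus controls had library AM1759_4 highest at 35.3 (next 30.6), and Tsc1 in p20 controls had library 2_1 lowest at 167.5 (next 216).

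The effect of Dis3 loss differed between conditions for 2 members by a test of the difference itself in edgeR. For Rptor the effect at GV3h minus that at GV was log2 1.08 (SE 0.29, adjusted p 0.0318), with 16 of 16 GV3h cKO oocytes above the control mean; under ERCC scaling it was not called (1.41, adjusted p 0.0534). For Kit the effect in adult GV oocytes minus that at p20 was log2 -0.59 (SE 0.19, adjusted p 0.0364), with 8 of 8 adult cKO oocytes below the control mean. That call was lost in the fit of these 4 groups alone (adjusted p 0.0578), with sums per title tag (0.392) and under ERCC scaling (0.162). In the fit of these 4 groups alone 1 member other than Kit was called, with a lower value.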

How the results depend on the processing

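Over the members' fold changes that were called with or without an alternative, no direction turned under DESeq2, without the filter on low counts, in fits of only the groups compared, under the replicate block, with sums per title tag or with 1 library left out, and ERCC scaling turned 19. Values near 0 changed sign, with no call, when each replicate was left out: Mtor in dcKO ran from -0.06 to 0.04, Akt1 in control ages from -0.02 to 0.04, and Mtor and Rptor in adult Dis3 cKO from -0.14 to 0.01 (0.006) and -0.17 to 0.01 (0.005). In MII Dis3 cKO, Foxo3 went to 0.05 (0.046) under ERCC scaling. For control MII against GV, ERCC values were -1.04 (Kit), -1.18 (Pdpk1), -0.51 (Akt1), -1.60 (Akt2), -0.99 (Foxo3), -1.65 (Tsc1) and -1.16 (Mtor). For Dis3 cKO MII against GV they were -0.57 (Kit), -0.97 (Pdpk1), -0.92 (Akt2), -0.70 (Foxo3), -1.02 (Tsc1), -0.70 (Mtor) and -0.85 (Rptor). For adult against p20 controls they were -1.69 (Akt1; -1.685), -1.57 (Akt2; -1.565) and -1.47 (Foxo3), and for the Dis3 cKO ages -1.76 (Akt1). The number of members called under ERCC scaling was 7 for Dis3 cKO GV3h against GV, 0 for the GV3h and 3 for the MII difference in effect, 0 for Exosc10 cKO, 3 for dcKO, 4 for dcKO against Dis3 cKO, 1 against Exosc10 cKO, 9 for the ages of controls and 0 for the age difference in effect. Fits of only the groups compared called 2 members for control GV3h against GV and 1 for p20 Dis3 cKO. They called 7 for GV3h Dis3 cKO (from 6), 6 for control ages (from 4) and 1, not Kit, for the age difference in effect. DESeq2 called 2, and the fit without MII Dis3 cKO replicate 15 called 1, for the MII difference in effect; Akt2 was lost without that library for Dis3 cKO MII against GV. Sums per title tag called 0 for adult Dis3 cKO, Exosc10 cKO, control ages and the age difference in effect, and 3 for Dis3 cKO ages. The members called stayed at 5 to 5 (adult Dis3 cKO), 7 to 7 (dcKO) and 3 to 4 (control ages) with each replicate left out. With the replicate block, 1 member was called for GV Dis3 cKO (Tsc2 lost) and Akt2 was lost for Dis3 cKO MII against GV (0.33, adjusted p 0.0644 in edgeR's test); the block changed no other call. Deviations of same-numbered libraries correlated over 0.1 in 17 of 142 poly(A) pairs (median r 0.013, highest 0.227) and 9 of 48 RiboMinus pairs (0.016, highest 0.366), with medians of -0.002 and -0.003 for other numbers; as not every pair did, the numbers were not taken as pairing the libraries. Polymerase II peaks at p20 counted 0 members with a 250 bp window and 1 with peaks at or above the median signal. Over all genes, calls under ERCC scaling went from 3294 to 14869 for control ages, from 6470 to 14200 for Dis3 cKO ages, from 1610 to 583 for the age difference in effect, from 4305 to 6843 for adult Dis3 cKO, from 1183 to 364 for Exosc10 cKO, from 7809 to 5015 for dcKO against Exosc10 cKO, from 471 to 118 for control GV3h and from 10178 to 15275 for control MII against GV, from 3009 to 6434 for Dis3 cKO GV3h against GV and from 2287 to 5237 for the MII difference in effect. Sums per title tag gave 308 for control ages, 3055 for Dis3 cKO ages, 70 for their difference, 0 for adult Dis3 cKO, 314 for p20 Dis3 cKO (from 1171) and 223 for Exosc10 cKO. Fits of only the groups compared gave 2083 for control GV3h against GV, 4336 for MII Dis3 cKO (from 7315), and 841 (from 355; DESeq2 545) and 1403 for the GV3h and MII differences in effect. The share of calls that were higher went under ERCC scaling from 45.6% to 0.484% for control ages, from 51.1% to 1.38% for Dis3 cKO ages, from 55.9% to 10.2% for adult and 49.0% to 12.8% for p20 Dis3 cKO, from 62.0% to 35.3% at GV and 64.8% to 89.7% at MII for Dis3 cKO, from 38.8% to 0.38% for control and 39.2% to 1.56% for Dis3 cKO MII against GV, from 42.3% to 55.9% for control and 42.9% to 97.4% for Dis3 cKO GV3h against GV, and from 50.5% to 73.1% for dcKO against Dis3 cKO. The cause of these shifts was not tested.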
